A study of Homo sapiens with 24 samples.

Results

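The comparison set OVCAR8 cells given medium from proliferating cells beside OVCAR8 cells given fresh medium, as 3 RNA libraries against 3, chosen by their column names from a table of 24 libraries in 8 groups. OVCAR8 was grown from a human ovarian cancer of the high grade serous type, and all groups were held in ultra-low attachment plates, on which cells do not adhere and float as clumps. The fresh group is labelled with fresh medium, and the proliferative group with medium that vehicle-treated proliferating cells had conditioned (proliferative medium below). A shared protocol describes mixing equal parts of conditioned medium and RPMI medium with 5% serum, and it stands on the fresh libraries too, so what stood in for conditioned medium there is not stated. The labels do not name the cells that conditioned the medium, its time on those cells or the length of exposure. Beside them stand 3 libraries with medium from cells made senescent by cisplatin (senescent medium) and 3 from cells pre-treated with proliferative medium, whose later medium is not described. One line was used, and nothing says that replicates were separate cultures, so p-values measure a spread between libraries that may be technical.

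Conditioned medium holds what cells have released and lacks part of what they have used up. One system that reads such surroundings is the hypoxia-inducible factor (HIF). Its alpha subunits are hydroxylated by EGLN enzymes when oxygen, iron and 2-oxoglutarate are at hand, and are then destroyed. When hydroxylation slows they pair with ARNT, bind DNA at the letters ACGTG and raise genes of glycolysis, acid export and vessel growth. A further system is interferon signalling, in which STAT and IRF proteins raise antiviral genes through DNA elements that hold GAAA again after a gap of 2 bases, and metallothioneins are raised by the zinc sensor MTF1 at TGCNCNC.

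Total counts of the 6 libraries ran from 14718120 to 17777279, of which protein-coding genes took 96.3% to 96.4%. Of the defining markers of an ovarian epithelial line, PAX8, a transcription factor of the Müllerian tract, was at 20.7 ± 1.05 FPKM in fresh and 26.8 ± 0.46 FPKM in proliferative medium (mean ± SD of 3 libraries). The epithelial adhesion gene EPCAM was at 7.05 ± 0.879 FPKM in fresh and 7.23 ± 1.04 FPKM in proliferative medium. The cadherin CDH6 was at 0.0995 ± 0.0279 FPKM in fresh and 0.0589 ± 0.0408 FPKM in proliferative medium, and MUC16, SOX17, EMX2 and KRT19 were at or near 0. WT1, also in this marker list, was low, at 0.31 to 0.422 FPKM in fresh and 0.323 to 0.343 FPKM in proliferative medium. FPKM are the deposited counts per gene length and library size, and CPM are counts scaled to a common library size with TMM factors. The leukocyte list summed to 4.17 to 5.01 FPKM in fresh and 5.06 to 5.95 FPKM in proliferative medium, with PTPRC, CD3D and MS4A1 at 0 in all 6 libraries. The fibroblast list, nearly all of it COL1A1, summed to 214 to 227 and 173 to 175 FPKM. The endothelial list summed to 0.996 to 1.36 and 1.1 to 1.26 FPKM, and the mesothelial list, nearly all of it MSLN, to 115 to 127 and 198 to 202 FPKM.

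The genome-wide difference was broad and mostly small. Of 19210 genes tested, 3966 rose (20.6%) and 4138 fell (21.5%) in proliferative medium at an adjusted p under 0.05 (edgeR quasi-likelihood test, Benjamini-Hochberg). Together these calls are 42.2% of the genes, and 54.5% of them were smaller than 0.5 on the log2 scale. The counts of every gene list below are to be read beside these shares of rises and falls. Large changes were mostly rises, as 938 called genes rose by more than 1 and 335 fell by more than 1. The 5th percentile of log2 fold changes was -0.817 and the 95th was 1.14. CPM ranges of the 2 groups did not overlap in 55.1% of genes. Where genes are named for the largest changes, no overlap was a condition of the choice and is not a finding. In the 8849 better expressed genes, the first principal component held 90.1% of the variance over the 6 libraries and separated the groups. It ran from -18.71 to -17.55 in fresh and from 17.58 to 18.28 in proliferative medium. On the second component (3.42%) fresh replicate 3 was at -6.586, away from fresh replicates 1 (3.634) and 2 (3.195). The proliferative libraries ran from -1.807 to 1.854 on it. Long non-coding RNAs leaned upward, with 435 of 3009 rising and 195 falling, while 3359 of 14396 protein-coding genes rose and 3742 fell. Across the 8849 better expressed genes the log2 fold change rose weakly with GC content (Pearson r = 0.255) and hardly varied with log2 gene length (r = -0.0789); genes are not independent replicates, and a fit corrected for both called 4090 rises and 4301 falls. A value in parentheses beside a gene is its log2 fold change, proliferative over fresh medium, ± standard error with n = 3 a group.

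The DNA letters that the 3 systems above are known to read are shown first for the genes whose results follow. Within the 250 bases before the RefSeq start (GRCh38.p14), ACGTG on either strand stood in 12 of the 25 HIF targets with an entry (48.0%), against 18.7% of all 27305 promoters. The interferon response element (GAAA, any 2 bases, GAAA) stood in 16 of 25 interferon-stimulated genes with an entry (64.0%), against 3.07% of all promoters. TGCNCNC, a looser spelling, stood in 5 of 7 metallothionein and metal response genes (71.4%), against 48.4% of all. The lists hold genes already tied to these systems, so a share above that of all promoters is not a result of these data. Among members with an entry that rose, 10 of 21 held ACGTG (47.6%), 14 of 18 the interferon element (77.8%) and 3 of 3 TGCNCNC. A match describes letters, and no binding was measured. The lines below give 30 bases, 5′ to 3′ on the gene's strand, around the ACGTG nearest to the start in the 6 HIF targets with the largest rises among those holding it, with ACGTG or its reverse complement CACGT in capitals.
CA9: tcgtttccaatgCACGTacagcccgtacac
ANGPTL4: ggaaagaagagtCACGTctcccacggttcg
BNIP3: cgcacgcgccgCACGTGccacacgcacccc
FAM162A: cagcgcgtggcgCACGTcctacacgccccg
LOX: gtaactttgcaaACGTGccagaaagtttaa
P4HA1: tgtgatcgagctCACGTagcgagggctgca
These stretches lie at chr9:35673898-35673927 (plus strand), chr19:8363909-8363938 (plus), chr10:131982039-131982068 (minus), chr3:122384086-122384115 (plus), chr5:122078284-122078313 (minus) and chr10:73096935-73096964 (minus). The MT1X stretch, chr16:56682220-56682423 on the plus strand, ends before the first annotated transcript and holds 4 matches to TGCNCNC, in capitals. The IFIT1 stretch, chr10:89392373-89392545 on the plus strand, also ends before the first transcript and holds 2 matches to the interferon element in the opposite orientation, in capitals.
MT1X: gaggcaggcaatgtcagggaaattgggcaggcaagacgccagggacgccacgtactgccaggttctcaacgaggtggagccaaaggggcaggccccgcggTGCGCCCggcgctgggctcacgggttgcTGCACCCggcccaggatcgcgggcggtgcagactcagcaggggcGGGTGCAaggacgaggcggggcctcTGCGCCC
IFIT1: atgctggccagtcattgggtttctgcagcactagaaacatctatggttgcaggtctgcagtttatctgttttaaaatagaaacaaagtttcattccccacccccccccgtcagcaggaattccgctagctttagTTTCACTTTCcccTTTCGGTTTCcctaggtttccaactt
The 6 HIF targets shown were drawn from members that rose, and MT1X and IFIT1 were picked as examples. Their rises therefore say nothing about the letters. The changes were CA9 (4.29 ± 0.53), ANGPTL4 (2.53 ± 0.13), BNIP3 (2.13 ± 0.05), FAM162A (2.10 ± 0.06), LOX (1.96 ± 0.07), P4HA1 (1.53 ± 0.04), MT1X (2.82 ± 0.21) and IFIT1 (1.69 ± 0.08). Among HIF targets holding ACGTG, BHLHE40, with 4 matches, fell and ANKRD37, with 3, did not pass the test.

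HIF targets mostly rose, many of them severalfold. In this list 27 of 32 measured members rose and 3 fell, beside the 20.6% and 21.5% over all genes, and the median log2 fold change was 1.39. CA9 (ENSG00000107159, chromosome 9, 35673856 to 35681159, plus strand), a membrane carbonic anhydrase that acidifies the outside of cells, had 0.339, 0.0651 and 0 CPM in the fresh libraries and 2.68, 2.5 and 3.32 CPM in the proliferative libraries. The rise was 4.29 ± 0.53 (edgeR adjusted p = 7.81e-09). NDRG1 (ENSG00000104419, chromosome 8, 133237171 to 133302022, minus strand), a stress gene, had 174, 170.3 and 159 CPM in the fresh libraries and 1677, 1716 and 1724 CPM in the proliferative libraries. Here the groups stood about an order of magnitude apart, at 3.35 ± 0.04 (edgeR adjusted p = 1.44e-44). STC1 (ENSG00000159167, chromosome 8, 23841915 to 23854807, minus strand), a secreted hormone, had 5.82, 5.79 and 4.92 CPM in the fresh libraries and 53.4, 51.1 and 52.3 CPM in the proliferative libraries (3.25 ± 0.10). The mean level of the vessel growth factor VEGFA went from 3.02 ± 0.306 to 12.2 ± 0.19 FPKM (2.00 ± 0.09).

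Targets with different jobs rose alike. Among regulators of fuel use, PDK1 (1.79 ± 0.08) blocks pyruvate entry into mitochondria and PFKFB4 (2.00 ± 0.06) sets the level of an activator of glycolysis. Among genes of mitochondrial removal, BNIP3 (2.13 ± 0.05) and BNIP3L (1.28 ± 0.04) mark mitochondria for autophagy. Among lipid genes, ANGPTL4 (2.53 ± 0.13) inhibits lipoprotein lipase and HILPDA (1.84 ± 0.14) inhibits lipolysis in droplets. Collagen processing was represented by the prolyl hydroxylases P4HA1 (1.53 ± 0.04) and P4HA2 (1.58 ± 0.06) and the cross-linking enzyme LOX (1.96 ± 0.07). The targets that feed back on HIF itself rose as well, namely the hydroxylases EGLN1 (0.73 ± 0.04) and EGLN3 (1.26 ± 0.24). Among the 3 targets that fell were the vessel peptide ADM (-0.70 ± 0.14) and the clock repressor BHLHE40 (-0.16 ± 0.04). CA12 (0.21 ± 0.34) and ANKRD37 (0.23 ± 0.17) did not pass the test.

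Of the HIF alpha subunits EPAS1 rose, and HIF1A stood near the threshold. EPAS1 (ENSG00000116016, chromosome 2, 46293667 to 46386703, plus strand), the HIF-2 alpha subunit, had 4.58, 4.95 and 5.76 CPM in the fresh libraries and 17.6, 17.9 and 17.3 CPM in the proliferative libraries. EPAS1 rose by 1.79 ± 0.13 (edgeR adjusted p = 5.74e-15). HIF1A, the HIF-1 alpha subunit, was the more abundant, at 63.5 ± 1.51 FPKM in fresh and 56.7 ± 1.68 FPKM in proliferative medium, where EPAS1 was at 0.69 ± 0.0823 FPKM in fresh and 2.39 ± 0.0435 FPKM in proliferative medium. HIF1A fell by 0.17 ± 0.07 with an edgeR adjusted p of 0.0457, a call that was lost without each single fresh library (0.0607, 0.0846 and 0.129 without replicates 1, 2 and 3) and without proliferative replicates 2 (0.126) and 3 (0.119), and that ranged over 4.43e-06 to 0.303 across all settings tried. The partner ARNT (0.24 ± 0.06), the asparagine hydroxylase HIF1AN (0.24 ± 0.05) and the inhibitor CITED2 (0.68 ± 0.05) rose, and the coactivators CREBBP (-0.18 ± 0.05) and EP300 (-0.23 ± 0.04) fell. In this list 5 of 12 measured members rose and 3 fell. HIF protein was not measured here.

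Enzymes that use oxygen and 2-oxoglutarate, as the EGLN enzymes do, were counted as a class, and 20 of 30 measured members rose and 3 fell, with a median of 0.28. This class shares members with the HIF targets, KDM3A among them, so its count is not a separate result. Its largest rise, 1.58, equals that of the HIF target P4HA2. The histone demethylases KDM7A (1.18 ± 0.10), KDM4B (1.12 ± 0.04), KDM6B (0.82 ± 0.09) and KDM3A (0.57 ± 0.05) rose. So did the lysyl hydroxylases of collagen PLOD2 (1.19 ± 0.05) and PLOD1 (1.06 ± 0.05) and the third HIF hydroxylase EGLN2 (0.66 ± 0.15). Against that run, PLOD3 (-0.23 ± 0.06) and the lysyl hydroxylase JMJD6 (-0.36 ± 0.08) fell. The DNA demethylases TET1 (-0.43 ± 0.20), TET2 (0.03 ± 0.09) and TET3 (-0.17 ± 0.09) did not pass the test.

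Glycolysis genes rose at nearly every step. Here 18 of 21 measured members rose and 0 fell, and the median was 0.91. RNA of the glucose transporters SLC2A3 (1.52 ± 0.05) and SLC2A1 (0.70 ± 0.04) rose, and glucose uptake was not measured. HK2 (ENSG00000159399, chromosome 2, 74833981 to 74893359, plus strand), the hexokinase that traps glucose in the cell, had 23.96, 24.2 and 22.5 CPM in the fresh libraries and 102, 108 and 117 CPM in the proliferative libraries. The groups did not overlap, and the change was 2.21 ± 0.07 (edgeR adjusted p = 1.72e-27). PGK1 (ENSG00000102144, chromosome X, 77910739 to 78129296, plus strand), which makes the first ATP of the pathway, had 325, 315 and 324 CPM in the fresh libraries and 1082, 1084 and 1085 CPM in the proliferative libraries, also without overlap (1.75 ± 0.03). LDHA, which turns pyruvate into lactate, had 935, 917 and 947 CPM in the fresh libraries and 1969.6, 1984 and 1980.2 CPM in the proliferative libraries (1.08 ± 0.03), so that its lowest proliferative library stood above its highest fresh library.

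Isozymes of one step did not move equally. At the hexokinase step HK1 went from 22.9 ± 0.954 to 42.7 ± 1.68 FPKM and HK2 from 3.84 ± 0.15 to 17.8 ± 1.25 FPKM, so HK1 (0.90 ± 0.05) remained the more abundant per gene length while HK2 rose further. At the phosphofructokinase step PFKL (1.12 ± 0.05) and PFKP (0.64 ± 0.04) rose and PFKM (0.08 ± 0.06) did not pass the test. At the enolase step ENO1 went from 348 ± 8.05 to 654 ± 10.4 FPKM (0.91 ± 0.04) and the neuronal form ENO2 from 47.1 ± 1.27 to 177 ± 4.28 FPKM (1.90 ± 0.07). At the aldolase step both ALDOA (0.96 ± 0.16) and ALDOC (1.78 ± 0.24) rose. Lactate leaves through monocarboxylate carriers: the export form SLC16A3 (1.12 ± 0.11) rose, whereas SLC16A1 (-0.08 ± 0.04) and the carrier chaperone BSG (0.06 ± 0.05) did not pass the test.

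The branches off glycolysis went both ways. Genes that store glucose as glycogen rose, namely the phosphoglucomutase PGM1 (1.56 ± 0.05), the branching enzyme GBE1 (1.53 ± 0.05) and the muscle-type glycogen synthase GYS1 (1.19 ± 0.05). The liver phosphorylase PYGL (-0.17 ± 0.04), which takes glycogen apart, fell. In the pentose phosphate branch, which makes NADPH and ribose, the transaldolase TALDO1 (-0.42 ± 0.05) fell. Over both branches 6 of 16 measured members rose and 5 fell, beside 20.6% and 21.5% of all genes.

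Most mitochondrially encoded genes and part of the citrate cycle genes fell. In the citrate cycle and pyruvate entry list 2 of 20 measured members rose and 9 fell (median -0.13), with falls in IDH3A (-0.59 ± 0.11), citrate synthase CS (-0.37 ± 0.04), the pyruvate dehydrogenase subunit PDHA1 (-0.36 ± 0.06) and SUCLA2 (-0.36 ± 0.06). Of respiratory chain subunits encoded in the nucleus 5 of 33 measured members rose and 9 fell, beside 20.6% and 21.5% of all genes. Their counts moved with the setting: 3 rose without fresh replicate 3 or proliferative replicate 1, 9 rose and 9 fell among genes of a mean FPKM of at least 5, 10 rose and 12 fell with only the 2 groups in the fit, and the median, -0.02, turned to 0.005 to 0.02 without fresh replicate 1 or 2 or proliferative replicate 1 or 2. Of the proteins encoded in mitochondrial DNA, 0 of 13 rose and 11 fell, with a median of -0.63. Cytochrome b, MT-CYB, had 3527, 3502 and 3478 CPM in the fresh libraries and 1894, 1874 and 1898 CPM in the proliferative libraries (-0.89 ± 0.06), and MT-ATP6, a subunit of ATP synthase, had 2899.8, 2913 and 3018 CPM in the fresh libraries and 1779.8, 1742 and 1758 CPM in the proliferative libraries (-0.74 ± 0.05). All mitochondrially encoded genes together took 5.93% to 6.12% of counts in the fresh and 4.55% to 4.58% in the proliferative libraries. Fewer mitochondria and less RNA in each cannot be told apart here, and the strand of counting, which bears on MT-ND6 (0 ± 0.10), is not given.

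**Figure D1:**
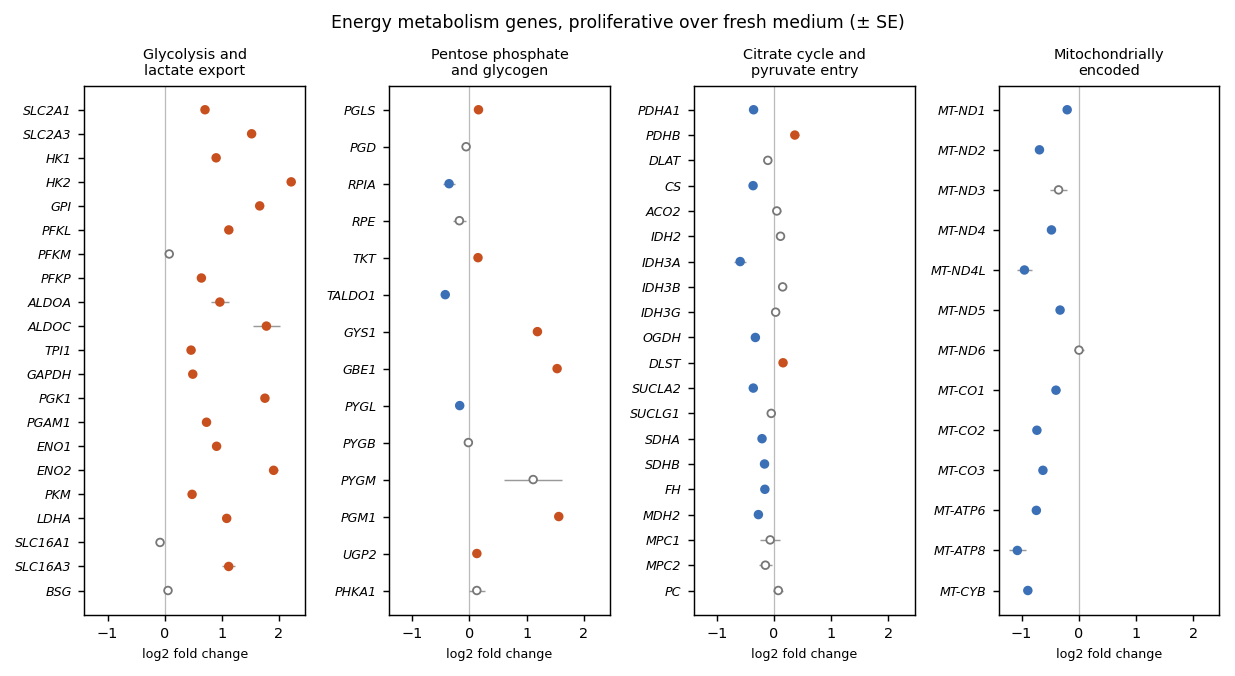
Log2 fold changes (horizontal axis, proliferative over fresh medium) of genes of glycolysis, pentose phosphate and glycogen metabolism, the citrate cycle and mitochondrial DNA, in pathway order, with lines for ± SE where wider than the point. Orange and blue points passed the test upward and downward and open points did not; 18 of 21 glycolysis genes are orange, and 11 of 13 mitochondrially encoded genes are blue.

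Acid handling and nutrient sensing also differed. Of ion and acid-base transporters 11 of 23 measured members rose and 4 fell. Besides CA9, SLC4A3 (0.84 ± 0.10), an anion exchanger, rose, and the exchanger scaffold SLC9A3R1 (-0.52 ± 0.07) and the carrier SLC16A4 (-0.80 ± 0.21) fell. TXNIP (ENSG00000265972, chromosome 1, 145992435 to 145996600, minus strand), which limits glucose uptake and is raised by glucose phosphate through MondoA, had 228, 219.6 and 224 CPM in the fresh libraries and 599, 583 and 609 CPM in the proliferative libraries. The groups were well apart (1.42 ± 0.04), and its relative ARRDC4 (1.09 ± 0.10), which answers the same sensor, rose too, whereas the genes of the sensor, MLXIP (0.01 ± 0.05) and MLX (-0.07 ± 0.07), did not pass the test.

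Metal handling genes mostly rose, with the metallothioneins in front. Of the metal response list 6 of 8 measured members rose and 1 fell, with 5 of 13 members too low to be tested. MT1X (ENSG00000187193, chromosome 16, 56682424 to 56684196, plus strand) had 5.88, 5.08 and 5.76 CPM in the fresh libraries and 37.8, 38.5 and 42.5 CPM in the proliferative libraries (2.82 ± 0.21, edgeR adjusted p = 6.94e-10). MT1E had 31.4, 35.4 and 34.4 CPM in the fresh libraries and 204, 201 and 201 CPM in the proliferative libraries (2.58 ± 0.12). MT2A, the most abundant of them, went from 236 ± 9.44 to 381 ± 8.3 FPKM (0.69 ± 0.16). All 3 had separate groups; the MT1 genes are near copies that lie side by side on chromosome 16, and how their shared reads were split is not known. The zinc exporter SLC30A1, a known MTF1 target, rose (0.58 ± 0.12) and the zinc importer SLC39A10 (-1.05 ± 0.08) fell, while the sensor MTF1 (0.02 ± 0.09) did not pass the test.

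Of iron handling genes 5 of 11 measured members rose and 2 fell, with a median of 0.02, beside 20.6% and 21.5% of all genes. The transferrin receptor TFRC, which brings iron in, had 96.7, 97.8 and 98.2 CPM in the fresh libraries and 54.5, 52.1 and 52.98 CPM in the proliferative libraries (-0.87 ± 0.05). The ferritin heavy chain FTH1, which stores it, had 1269, 1237 and 1203 CPM in the fresh libraries and 1961, 2023 and 2074 CPM in the proliferative libraries (0.71 ± 0.04). Both were separate between groups, while the ferritin light chain FTL (-0.19 ± 0.04) fell slightly. HMOX1 (0.44 ± 0.08), which releases iron from haem, the ferritin receptor NCOA4 (0.22 ± 0.04), the mitochondrial iron carrier SLC25A37 (0.64 ± 0.04) and transferrin TF (2.01 ± 0.45) rose, and the iron sensor IREB2 (0.02 ± 0.06) did not pass the test.

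Antiviral genes mostly rose. Of interferon-stimulated genes 21 of 29 measured members rose and 1 fell, with a median of 0.86. IFIT2 (ENSG00000119922, chromosome 10, 89283694 to 89309276, plus strand), an antiviral protein, had 11.3, 11.6 and 10.46 CPM in the fresh libraries and 55.4, 56.5 and 53.8 CPM in the proliferative libraries. The groups did not overlap (2.31 ± 0.09, edgeR adjusted p = 1.38e-24). OAS3, which senses double-stranded RNA, had 2.2, 2.47 and 2.18 CPM in the fresh libraries and 9.17, 9.57 and 12.2 CPM in the proliferative libraries (2.17 ± 0.16), and ISG15, a ubiquitin-like modifier, had 36.7, 36.4 and 35.03 CPM in the fresh libraries and 65.99, 71.97 and 69.97 CPM in the proliferative libraries (0.94 ± 0.07). OASL (2.62 ± 0.11), IFI27 (1.85 ± 0.09), IFIT3 (1.66 ± 0.09), MX1 (1.11 ± 0.15) and the RNA sensor IFIH1 (0.86 ± 0.14) rose as well, and MX2 (-0.38 ± 0.06) was the 1 that fell. Levels stayed modest for many of them: IFIT1 went from 3.29 ± 0.228 to 10.7 ± 0.428 FPKM and MX1 from 0.65 ± 0.075 to 1.41 ± 0.122 FPKM.

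Of interferon signalling genes 8 of 18 measured members rose and 4 fell. The interferon genes IFNB1, IFNK, IFNL1, IFNL2 and IFNL3 had too few reads to be tested, and IFNE (-0.08 ± 0.55) did not pass the test. The transducers IRF9 (0.78 ± 0.18), IRF7 (0.88 ± 0.08) and STAT2 (0.21 ± 0.05) and the brakes SOCS1 (1.31 ± 0.22) and SOCS3 (1.03 ± 0.12) rose. TYK2 (-0.03 ± 0.05) did not pass the test, and the receptor IFNAR1 (-0.41 ± 0.08) and the kinase JAK2 (-0.50 ± 0.13) fell. Of MHC class I genes 9 of 16 measured members rose and 3 fell: the heavy chains HLA-E (0.89 ± 0.06), HLA-F (0.86 ± 0.11), HLA-B (0.59 ± 0.04) and HLA-C (0.54 ± 0.10) rose, whereas the shared light chain B2M (0.03 ± 0.09) did not pass the test. HLA genes are close relatives and may share reads.

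Secreted immune genes followed the same direction. In the complement list 12 of 16 measured members rose and 2 fell, with a median of 0.99. C3, the central component, had 12.9, 11.5 and 11.9 CPM in the fresh libraries and 65.2, 71.2 and 70.3 CPM in the proliferative libraries (2.50 ± 0.07), and CFB, a protease that activates it, had 2.83, 1.95 and 2.46 CPM in the fresh libraries and 14.2, 11.6 and 12.04 CPM in the proliferative libraries (2.38 ± 0.18). Both had separate groups. The classical pathway proteases C1R (1.00 ± 0.05), C1S (1.21 ± 0.06) and C2 (1.35 ± 0.33) rose, as did the brakes SERPING1 (1.19 ± 0.08), CFI (0.99 ± 0.24) and CD55 (0.48 ± 0.12); clusterin, CLU (-0.55 ± 0.11), fell. C4A (2.09 ± 0.36) and C4B (1.52 ± 0.32) rose as well, but they are near copies whose reads may be shared.

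Among cytokines and NF-kB targets 14 of 20 measured members rose and 1 fell, with a median of 0.66. CCL5 (ENSG00000271503, chromosome 17, 35871491 to 35880793, minus strand), a chemokine for T cells, had 0.113, 0.0651 and 0.056 CPM in the fresh libraries and 1.23, 1.37 and 1.29 CPM in the proliferative libraries. It rose at low levels (3.92 ± 0.61). LIF (1.16 ± 0.14), TNF (0.82 ± 0.24) and the adhesion protein ICAM1 (0.69 ± 0.05) rose, and so did NF-kB's own genes RELB (1.06 ± 0.16), NFKB2 (0.66 ± 0.06) and TNFAIP3 (0.80 ± 0.12). NFKB1 (0.07 ± 0.08) and CXCL8 (0.67 ± 0.32) did not pass the test.

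**Figure D2:**
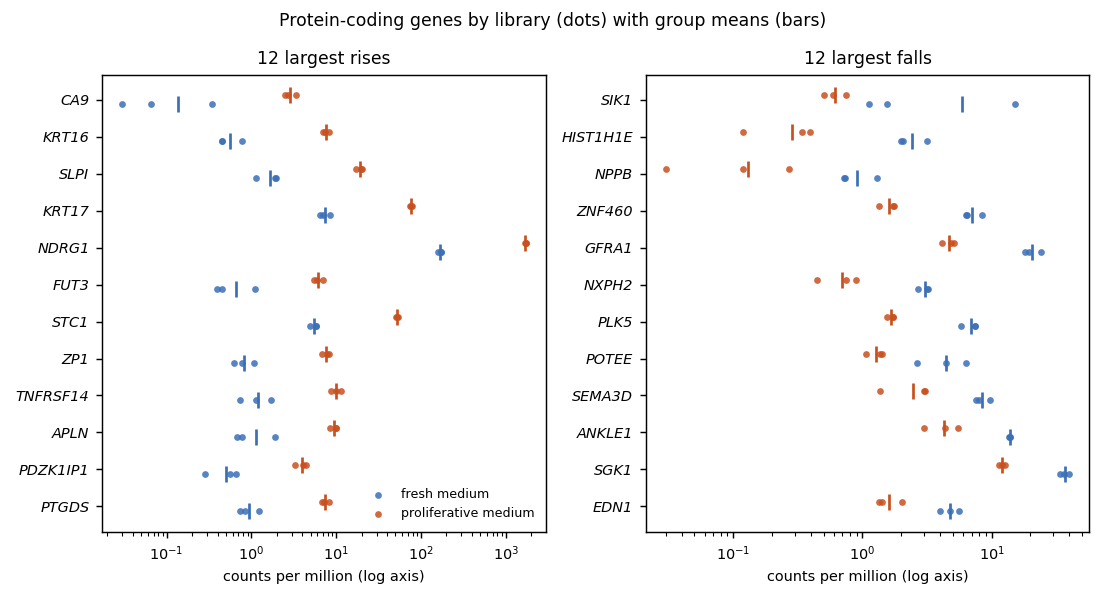
CPM (log axes) of the 12 protein-coding genes with the largest fitted rises and the 12 with the largest falls, one dot per library and a bar at each group mean; values under 0.03 are drawn at 0.03. In each gene the fresh (blue) and proliferative (orange) libraries do not overlap, as the choice of genes required, and SIK1 has 1 fresh library far above the other fresh libraries.

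Genes of epithelial surfaces were among the largest rises. KRT17 (ENSG00000128422, chromosome 17, 41619441 to 41624842, minus strand), a keratin of stressed and regenerating epithelium, had 7.06, 6.44 and 8.51 CPM in the fresh libraries and 73.5, 77.02 and 78.3 CPM in the proliferative libraries. Its change was 3.37 ± 0.10 (edgeR adjusted p = 1.16e-29). SLPI (ENSG00000124107, chromosome 20, 45252239 to 45254564, minus strand), a secreted protease inhibitor, had 1.13, 1.95 and 1.9 CPM in the fresh libraries and 19.5, 17.1 and 20.3 CPM in the proliferative libraries (3.51 ± 0.16). Of all keratins tested 3 of 13 measured members rose and 2 fell, so that 38.5% were called, beside 42.2% of all genes. KRT16 also rose (3.76 ± 0.29), while the major keratins of this simple epithelium, KRT8 (-0.02 ± 0.04) and KRT18 (0.01 ± 0.04), did not pass the test and KRT7 (-0.55 ± 0.04) fell. KRT16 and KRT17 have pseudogene copies, so part of their reads may be shared.

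Of secretory and barrier genes 11 of 16 measured members rose and 0 fell, with 16 of 33 members high enough to be tested. The rises included the ovarian cancer serum marker WFDC2 (2.44 ± 0.25), the mucin MUC1 (1.19 ± 0.10), the tight junction protein CLDN1 (1.33 ± 0.17) and S100A2 (1.52 ± 0.26). Other single genes with large rises were the fucosyltransferase FUT3 (3.26 ± 0.29), the immune receptor TNFRSF14 (3.10 ± 0.22), the peptide APLN (3.05 ± 0.23) and the prostaglandin synthase PTGDS (2.97 ± 0.28). ZP1 (3.18 ± 0.29) and PDZK1IP1 (2.98 ± 0.30) completed the 12 largest.

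Matrix genes rose more often than they fell: 16 of 37 measured members rose and 8 fell, beside 20.6% and 21.5% of all genes. The share of falls was thus near that of all genes. FN1 (ENSG00000115414, chromosome 2, 215360440 to 215436172, minus strand), fibronectin, had 218, 217 and 219 FPKM in the fresh libraries and 555, 565 and 563 FPKM in the proliferative libraries, a separate and high level that rose by 1.36 ± 0.03. The laminin chain LAMB3 (0.95 ± 0.10), of the basement membrane of epithelia, rose, and so did the integrin ITGB4 (0.76 ± 0.04). Collagen chains split, with rises in COL7A1 (0.70 ± 0.12) and falls in the basement membrane chain COL4A1 (-0.86 ± 0.06) and COL1A1 (-0.39 ± 0.04). The matrix proteases MMP9 (1.22 ± 0.25) and MMP14 (0.59 ± 0.06) rose and MMP1 (-0.74 ± 0.11) fell. Junction genes went both ways, as plakoglobin JUP (0.63 ± 0.05) rose and occludin OCLN (-0.65 ± 0.10) and N-cadherin CDH2 (-0.58 ± 0.06) fell.

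Nearly all genes of DNA replication and mitosis fell, with 2 of the former and 0 of the latter falling by more than 1 on the log2 scale. Of DNA replication genes 0 of 38 measured members rose and 35 fell (median -0.58), and of mitosis genes 0 of 34 rose and 33 fell (median -0.52). CLSPN (ENSG00000092853, chromosome 1, 35720218 to 35769967, minus strand), which couples replication forks to the checkpoint kinase, had 40.2, 37.8 and 41.02 CPM in the fresh libraries and 15.3, 13.7 and 15.6 CPM in the proliferative libraries. No proliferative library reached a fresh one (-1.42 ± 0.10, edgeR adjusted p = 9.53e-16). The replication factor MCM10 (-1.05 ± 0.11), the helicase subunit MCM4 (-0.76 ± 0.04), the sliding clamp PCNA (-0.65 ± 0.04) and the nucleotide reductase RRM2 (-0.80 ± 0.07) fell, and so did the mitotic genes CCNB1 (-0.54 ± 0.05), PLK1 (-0.57 ± 0.05), TOP2A (-0.53 ± 0.04) and ASPM (-0.74 ± 0.09). Replication genes that did not pass the test include POLD1 (-0.06 ± 0.06) and RFC1 (-0.10 ± 0.05). Fewer dividing cells and less RNA per dividing cell cannot be told apart in bulk RNA.

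Regulators of cycle entry mostly fell, and a pair of inhibitors rose. Of first gap phase genes 3 of 23 measured members rose and 15 fell. The cyclins CCNE2 (-1.21 ± 0.13) and CCNE1 (-0.77 ± 0.09) and the factors E2F8 (-0.79 ± 0.13), E2F7 (-0.75 ± 0.09) and E2F1 (-0.34 ± 0.09) fell. Of the inhibitors, CDKN1C (0.94 ± 0.10) and CDKN2B (0.36 ± 0.09) rose, while CDKN1A (-0.04 ± 0.09) and CDKN1B (0.03 ± 0.06) did not pass the test. By the transcription factor families in the deposited table, 8 of 10 E2F family members fell and 1 rose. Other p53 targets besides CDKN1A gave rises in BBC3 (0.97 ± 0.20) and PHLDA3 (1.24 ± 0.17), of which BBC3 is a death-promoting member of the BCL2 family.

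Repair of double-strand breaks by homologous recombination, whose loss defines a class of ovarian cancers, was among the lists with the lowest median (-0.67), and 1 of 27 measured members rose and 20 fell. BRCA2 (ENSG00000139618, chromosome 13, 32315474 to 32400266, plus strand), which loads the recombinase, had 31.1, 32.7 and 33.5 CPM in the fresh libraries and 17.3, 17 and 16.3 CPM in the proliferative libraries, all fresh libraries above all proliferative ones (-0.94 ± 0.10). BRCA1 (-0.78 ± 0.12), RAD51C (-0.67 ± 0.09), RAD54L (-0.88 ± 0.09), BLM (-0.90 ± 0.12) and the end-resection factor RBBP8 (-0.92 ± 0.08) fell, as did the Fanconi genes FANCB (-1.17 ± 0.19) and FANCA (-0.99 ± 0.06). FANCF (0.33 ± 0.10) was the 1 member that rose. Nucleotide synthesis went the same way, as 1 of 17 measured members rose and 11 fell, with ADSL (-0.95 ± 0.23) and CAD (-0.68 ± 0.04) among the falls and the guanine branch enzyme IMPDH2 (0.17 ± 0.04) as the rise.

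Genes of serine and one-carbon metabolism and tRNA synthetases mostly fell. In serine and one-carbon metabolism 3 of 17 measured members rose and 13 fell. PSAT1 (ENSG00000135069, chromosome 9, 78297143 to 78330093, plus strand), of serine synthesis, had 77.1, 73.9 and 73.7 CPM in the fresh libraries and 29.2, 27.3 and 28.4 CPM in the proliferative libraries, with separate groups (-1.40 ± 0.08, edgeR adjusted p = 1.46e-19). SLC7A11, which exchanges cystine for glutamate, had 18.3, 21.7 and 20.2 CPM in the fresh libraries and 8.39, 8.02 and 6.02 CPM in the proliferative libraries (-1.41 ± 0.13), and the serine and alanine carrier SLC1A4 (-0.93 ± 0.13) fell. PSAT1 and SLC7A11 are known targets of ATF4, the factor of amino acid shortage. ATF4 itself rose (0.44 ± 0.05), and among its further targets DDIT3 (-0.11 ± 0.14) and CHAC1 (0.17 ± 0.21) did not pass the test. In the list of that response with the tRNA synthetases 5 of 34 measured members rose and 19 fell. Of these, 1 rose by more than 1 on the log2 scale (1.229) and 2 fell by more than 1. Of its synthetases, which charge tRNAs, 0 of 12 rose and 10 fell, IARS (-0.61 ± 0.05) and MARS (-0.57 ± 0.04) most.

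Ribosome assembly genes mostly fell, and ribosomal protein genes went both ways. Of ribosome biogenesis genes 1 of 32 measured members rose and 21 fell (median -0.30), with falls in the RNA polymerase I subunits POLR1A (-0.63 ± 0.05) and POLR1B (-0.63 ± 0.06) and in UTP20 (-0.68 ± 0.06). Of cytosolic ribosomal protein genes 19 of 43 measured members rose and 9 fell (median 0.06). Of polyamine genes 3 of 12 measured members rose and 6 fell, beside the 20.6% and 21.5% over all genes. The synthetic enzymes ODC1 (-1.09 ± 0.07), SRM (-0.89 ± 0.07) and AMD1 (-0.42 ± 0.07) fell, and the breakdown enzymes SMOX (1.31 ± 0.14) and SAT1 (0.41 ± 0.04) rose, while PAOX (-0.02 ± 0.12), a further breakdown enzyme, did not pass the test. ODC1, the first enzyme, had 105, 95.6 and 107 CPM in the fresh libraries and 47.3, 50.2 and 47.3 CPM in the proliferative libraries, and SMOX, which oxidises spermine, had 5.09, 5.53 and 6.6 CPM in the fresh libraries and 13.3, 15.9 and 13.6 CPM in the proliferative libraries. Each pair of groups was separate, in opposite directions.

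Protein folding genes mostly fell in cytosol and endoplasmic reticulum. Of heat shock and chaperonin genes 1 of 29 measured members rose and 23 fell (median -0.39), and of reticulum genes 2 of 23 measured members rose and 13 fell (median -0.25). HSP90AA1 (ENSG00000080824, chromosome 14, 102080738 to 102139699, minus strand), the inducible form of HSP90, had 438, 428 and 446 FPKM in the fresh libraries and 243, 243 and 247 FPKM in the proliferative libraries, without overlap (-0.84 ± 0.04). The steady form HSP90AB1 (-0.02 ± 0.03) did not pass the test. HSPH1 (-0.98 ± 0.05), HSPA8 (-0.85 ± 0.04), DNAJA1 (-0.77 ± 0.05) and the chaperonin subunit CCT5 (-0.71 ± 0.04) fell, as did HSPA1B (-1.25 ± 0.07) and HSPA1A (-0.95 ± 0.10), which are near copies. In the reticulum HSPA5 (-0.44 ± 0.03), HYOU1 (-0.59 ± 0.06) and PDIA4 (-0.60 ± 0.04) fell and the sensor ATF6 (0.26 ± 0.07) rose.

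Protein breakdown did not move as one. Of proteasome subunits 2 of 30 measured members rose and 14 fell, and of lysosome and autophagy genes 14 of 33 measured members rose and 8 fell. Within the lysosome list the regulator TFEB (0.89 ± 0.14), the proteases CTSD (0.63 ± 0.15) and CTSB (0.50 ± 0.04) and the membrane protein GPNMB (1.83 ± 0.20) rose, while the proton pump subunit ATP6V0D1 (-0.53 ± 0.05) fell. The autophagy gene ATG9B had 16.3, 15.5 and 15.3 CPM in the fresh libraries and 64.6, 69.7 and 65.7 CPM in the proliferative libraries (2.09 ± 0.08), separate between groups.

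Lipid synthesis genes mostly fell, and lipid droplet coat genes rose. Of cholesterol synthesis and uptake genes 1 of 24 measured members rose and 16 fell (median -0.37). INSIG1 (ENSG00000186480, chromosome 7, 155297776 to 155310235, plus strand), which holds the sterol sensor in the reticulum and is itself a target of SREBP-2, had 43.4, 42.2 and 40.2 CPM in the fresh libraries and 17.1, 17.7 and 18.1 CPM in the proliferative libraries, with separate groups (-1.26 ± 0.08, edgeR adjusted p = 2.04e-16). The synthesis enzymes SQLE (-0.93 ± 0.06) and IDI1 (-0.97 ± 0.06) fell. Of fatty acid synthesis genes 1 of 13 measured members rose and 9 fell, FASN (-0.79 ± 0.04) and ELOVL6 (-0.77 ± 0.07) among the falls, and acetate activating ACSS2 (0.49 ± 0.09) was the rise. In contrast, PLIN2, the coat of lipid droplets, had 57.1, 52.4 and 53.3 CPM in the fresh libraries and 155, 161 and 158 CPM in the proliferative libraries (1.54 ± 0.06), and the coat PLIN5 (1.32 ± 0.31) and the lipoprotein APOE (1.37 ± 0.06) rose.

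Signalling genes changed in both directions. SGK1 (ENSG00000118515, chromosome 6, 134169246 to 134318112, minus strand), a kinase of the PI3K and glucocorticoid pathways, had 34.01, 36.3 and 39.96 CPM in the fresh libraries and 11.4, 12.1 and 12.7 CPM in the proliferative libraries. Its change was -1.61 ± 0.11 (edgeR adjusted p = 1.78e-16). In its list of FOXO and glucocorticoid responsive genes 13 of 22 measured members rose and 4 fell. The largest rise in this list, 1.415, is also the largest in the list of MondoA genes, and equals that of TXNIP. The FOXO targets INSR (1.04 ± 0.08), PIK3IP1 (1.25 ± 0.21), FBXO32 (1.29 ± 0.08) and IRS2 (0.62 ± 0.05) rose with FOXO3 (0.61 ± 0.06). Of the glucocorticoid targets TSC22D3 (0.57 ± 0.13) and PER1 (0.52 ± 0.10) rose and FKBP5 (-0.42 ± 0.08) and DUSP1 (-0.76 ± 0.06) fell. Of immediate early genes 9 of 26 measured members rose and 7 fell, beside 20.6% and 21.5% of all genes. There were falls in FOS (-1.22 ± 0.14), EGR1 (-0.85 ± 0.06) and JUN (-0.71 ± 0.05) and rises in EGR3 (1.51 ± 0.36) and EGR4 (1.21 ± 0.34). FOS had 9.38, 12.04 and 11.98 CPM in the fresh libraries and 4.81, 5.47 and 3.92 CPM in the proliferative libraries.

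In the TGF-beta and BMP list 5 of 23 measured members rose and 5 fell. With 43.5% of its members called, the list was near the 42.2% of all genes. The BMP targets ID1 (-0.64 ± 0.06), ID3 (-1.04 ± 0.09) and SMAD6 (-1.12 ± 0.12) fell, and ID2 (-1.14 ± 0.79) did not pass the test. TGF-beta's ligand TGFB1 (0.85 ± 0.04) and receptor TGFBR2 (0.49 ± 0.05) and the BMP antagonist GREM1 (1.62 ± 0.26) rose. Notch genes mostly rose (9 of 16 measured members rose and 2 fell), among them the ligands DLL1 (1.63 ± 0.35) and JAG1 (0.79 ± 0.15) and the receptor NOTCH3 (1.09 ± 0.06), while the target HES1 (-0.72 ± 0.09) fell. Of Wnt genes 7 of 29 measured members rose and 12 fell, beside 20.6% and 21.5% of all genes. The ligand WNT6 (2.78 ± 0.82) rose and the receptors FZD8 (-1.11 ± 0.15) and LGR4 (-1.08 ± 0.08) fell.

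Lists tied to drug response and cell state went both ways, and are read beside the 20.6% and 21.5% of all genes that rose and fell. Of ABC drug transporters 5 of 18 measured members rose and 6 fell, the counts being level in some settings: ABCC3 (0.80 ± 0.12) and ABCB4 (0.70 ± 0.18) rose, while the multidrug exporter ABCB1 (-0.67 ± 0.19) and the nucleotide exporter ABCC4 (-0.71 ± 0.08) fell. Of stem-like cell markers 2 of 12 measured members rose and 2 fell, with no larger direction. The surface protein CD24 (0.69 ± 0.04) and the factor KLF4 (0.84 ± 0.11) rose, and the receptor KIT (-1.49 ± 0.51) and the factor SOX9 (-0.56 ± 0.07) fell. The call of KIT, a gene at low counts, was lost without proliferative replicate 3 (edgeR adjusted p = 0.0566, with a range of 0.00191 to 0.0566 over all settings tried). Of genes of the epithelial-mesenchymal state 5 of 19 measured members rose and 6 fell. The intermediate filament VIM (0.48 ± 0.04) rose, whereas N-cadherin CDH2, given with the matrix genes, fell. The largest rise in this list, 1.358, equals that of the matrix gene FN1. Of YAP targets 5 of 18 measured members rose and 9 fell, with tissue factor F3 (0.74 ± 0.04) against FJX1 (-0.48 ± 0.08). Of ERK output genes 2 of 23 measured members rose and 8 fell, with falls in the ERK phosphatase DUSP6 (-0.72 ± 0.21) and PHLDA2 (-0.79 ± 0.10). Without proliferative replicate 3 the falls among ERK output genes numbered 5, and the list's median was near 0 and of either sign across settings.

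Stress and death lists were as mixed, and are read beside the same shares of all genes. Of NRF2 targets 7 of 24 measured members rose and 10 fell: the aldo-keto reductase AKR1C3 (1.29 ± 0.10), which has near copies, rose, and the quinone reductase NQO1 (-0.47 ± 0.05) and thioredoxin TXN (-0.54 ± 0.06) fell. Of aryl hydrocarbon receptor genes 4 of 9 measured members rose and 4 fell, with the receptor AHR (0.54 ± 0.13) up and its repressor AHRR (-0.76 ± 0.10) down. Of p53 targets 9 of 24 measured members rose and 3 fell. Of the BCL2 family 9 of 17 measured members rose and 3 fell. Its largest rise, 2.13, equals that of the HIF target BNIP3. The protective BCL2 (-0.71 ± 0.19) fell, the protective BCL2L1 (0.45 ± 0.09) rose, and the death-promoting BIK (0.95 ± 0.18) and PMAIP1 (0.86 ± 0.07) rose. Of LXR targets 5 of 9 measured members rose and 1 fell, and of genes of fatty acid oxidation and lipid droplets 7 of 20 measured members rose and 3 fell, with the oxidation enzymes ACADVL (0.59 ± 0.11) up and ACADM (-0.25 ± 0.05) down. Of matrix proteases and inhibitors 6 of 20 measured members rose and 5 fell, and of MondoA genes 4 of 8 measured members rose and 1 fell.

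The remaining large falls included secreted factors and receptors. EDN1 (ENSG00000078401, chromosome 6, 12290363 to 12297194, plus strand), the vessel-constricting peptide endothelin-1, had 4.8, 5.6 and 3.97 CPM in the fresh libraries and 2.01, 1.43 and 1.35 CPM in the proliferative libraries. Its change was -1.57 ± 0.26. The ligand-binding receptor GFRA1 (-2.12 ± 0.15) of the RET pathway, the guidance protein SEMA3D (-1.77 ± 0.21), the neurexophilin NXPH2 (-2.12 ± 0.37) and the natriuretic peptide NPPB (-2.83 ± 0.77) fell. ANKLE1 (-1.70 ± 0.18), an endonuclease, the polo-like kinase PLK5 (-2.04 ± 0.23), the linker histone HIST1H1E (-3.05 ± 0.57), POTEE (-1.79 ± 0.42) and ZNF460 (-2.14 ± 0.53) fell as well. These are polyA libraries, so the value of HIST1H1E describes only the part of its RNA that such libraries capture. SIK1, a kinase, had 1.13, 1.56 and 15.2 CPM in the fresh libraries and 0.503, 0.594 and 0.744 CPM in the proliferative libraries, so that fresh replicate 3 alone held the fresh mean high. Its call (edgeR adjusted p = 0.042) was lost without that library (0.543) and without proliferative replicates 1 (0.115), 2 (0.105) or 3 (0.0918), and its adjusted p ranged over 0.00689 to 0.543 across all settings tried.

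Transcription factors as the deposited table classes them had 337 falls (27.1%) and 238 rises (19.2%) among 1242, beside 21.5% and 20.6% over all genes. Homeobox genes had 34 falls and 12 rises among 110, and zinc fingers of the C2H2 class 155 falls and 81 rises among 562. Among the 6 largest rises, chosen after values were seen, were EPAS1 and the clock factors DBP and RORA. DBP had 13, 12.95 and 12.4 CPM in the fresh libraries and 33.4, 35.8 and 38.2 CPM in the proliferative libraries (1.49 ± 0.09), and RORA had 10.7, 11.3 and 13.04 CPM in the fresh libraries and 28.1, 33.9 and 31.1 CPM in the proliferative libraries (1.40 ± 0.12). The choice of these factors required separate groups. Of non-coding RNAs, AC006372.1 had 0.396, 1.04 and 0.839 CPM in the fresh libraries and 5.2, 5.53 and 5.35 CPM in the proliferative libraries (2.83 ± 0.28).

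Seen as level per gene length, the changes touched the most abundant RNAs of the cell. The glycolytic GAPDH went from 1363 ± 28.2 to 1919.7 ± 20.5 FPKM (0.49 ± 0.03) and the elongation factor EEF1A1 from 3178 ± 29.9 to 3632 ± 93.4 FPKM (0.19 ± 0.04). The actin regulator TMSB10 went from 1742 ± 60.8 to 2368 ± 37.1 FPKM (0.44 ± 0.11). ACTB, the cytoplasmic actin often taken as a stable reference, went from 1175 ± 15.4 to 733 ± 12.2 FPKM (-0.69 ± 0.04), and the tubulin TUBB4B from 287 ± 8.04 to 221 ± 1.29 FPKM (-0.38 ± 0.03). RPL8 went from 1079 ± 71.8 to 1497 ± 26.1 FPKM (0.47 ± 0.14), a call that ended without fresh replicate 3 (edgeR adjusted p = 0.0563, with a range of 0.000636 to 0.0563 over all settings tried).

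**Figure D3:**
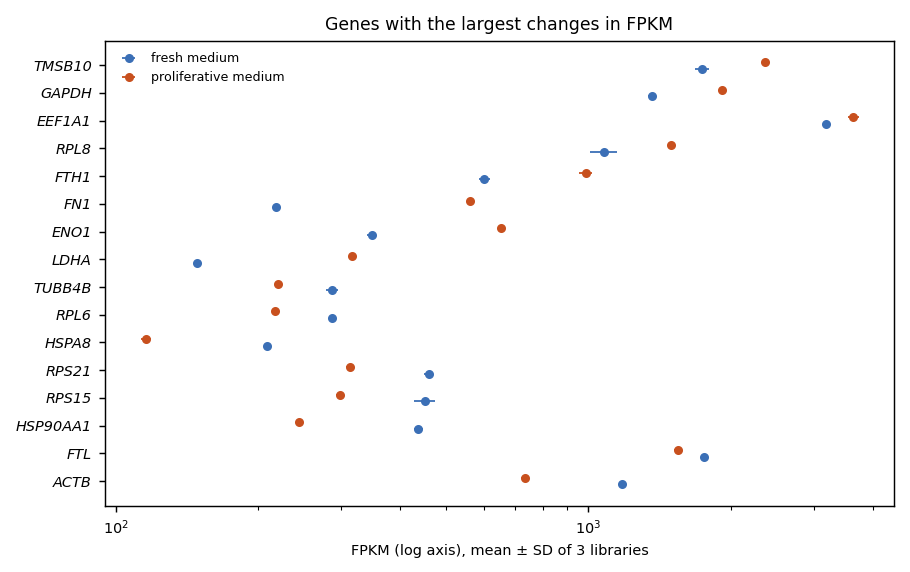
FPKM (log axis, mean ± SD of 3 libraries) of the nuclear protein-coding genes with the 8 largest rises and the 8 largest falls in FPKM, ordered by the size of the change, in fresh (blue) and proliferative (orange) medium. FN1, ENO1 and LDHA show the widest relative gaps upward, and ACTB the largest fall in FPKM.

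**Figure D4:**
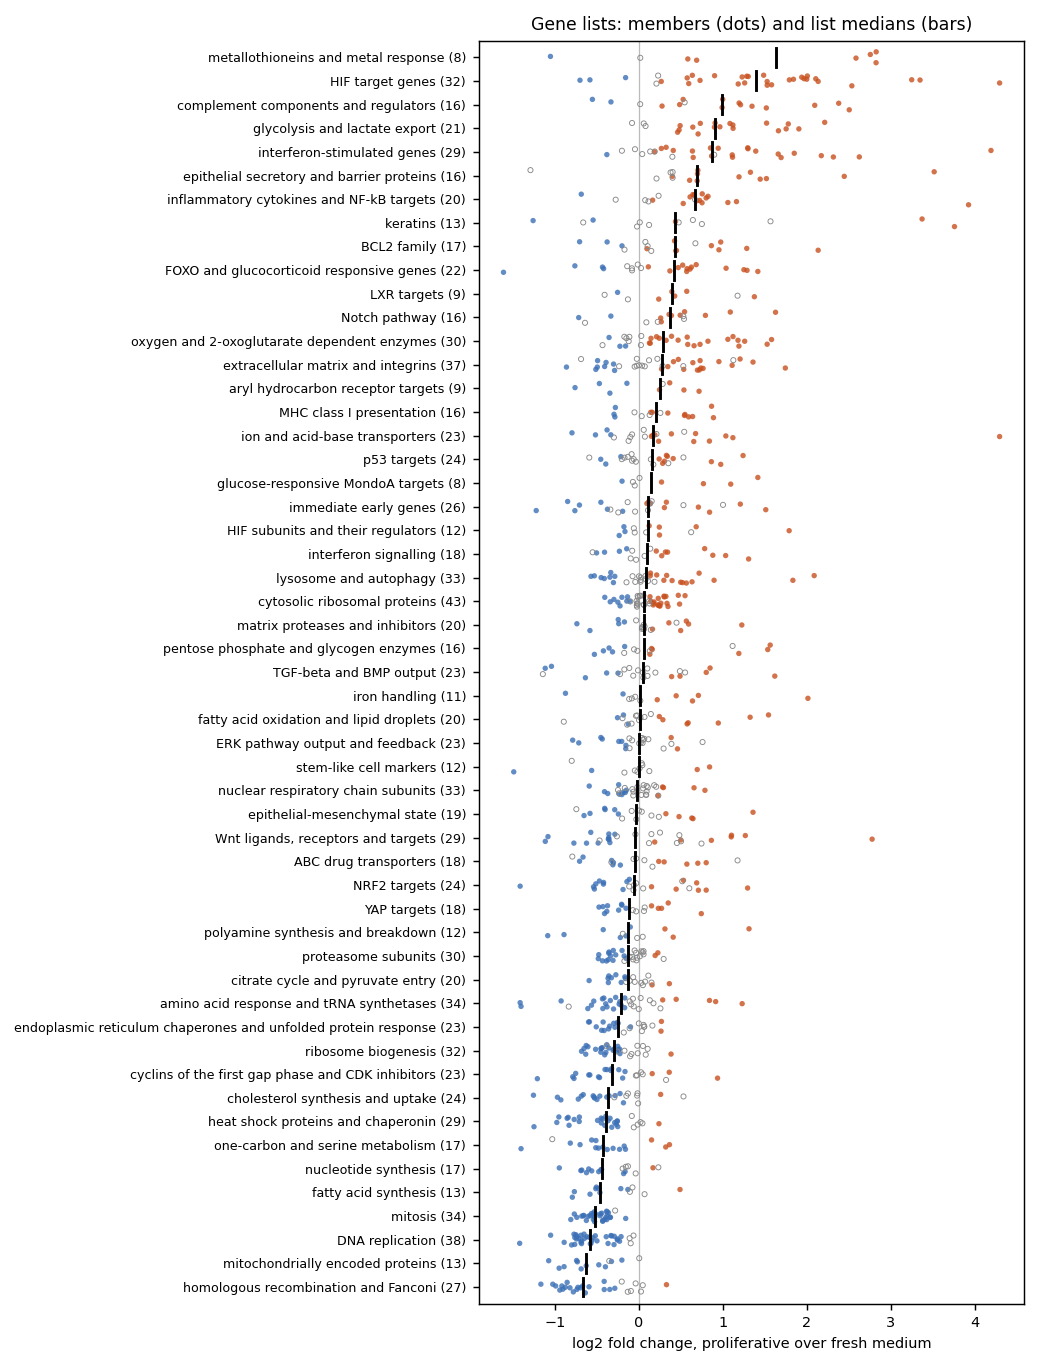
Log2 fold changes (horizontal axis) of the members of 53 gene lists, with the number of members tested in parentheses and lists ordered by their median (black bar). Orange and blue dots passed the test upward and downward and open dots did not; metallothioneins and HIF targets stand at the top and homologous recombination genes at the bottom.

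The genes that moved were then read in senescent medium and after pre-treatment. Both tests use the proliferative libraries again, so their values are not independent of the ones above and are given side by side. Over all genes 3186 were higher (16.6%) and 2389 lower (12.4%) in senescent than in proliferative medium, and 2490 were higher (13%) and 2589 lower (13.5%) after pre-treatment. Scaling by library totals turned the senescent split to 2198 higher and 3558 lower. NDRG1 stood at 168 ± 7.54 CPM in fresh, 1706 ± 25.2 in proliferative, 1265 ± 27.01 in senescent and 1111 ± 65.01 after pre-treatment. The senescent level was lower than the proliferative one (-0.43 ± 0.04), as was the pre-treated one (-0.62 ± 0.04). PGK1 stood at 322 ± 5.53 CPM in fresh, 1084 ± 1.43 in proliferative, 941 ± 17.8 in senescent and 782 ± 15.2 after pre-treatment, with differences of -0.20 ± 0.03 and -0.47 ± 0.03 in the same order.

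Genes differed in which medium stood nearest to fresh medium. MT1E was at 33.7 ± 2.08 CPM in fresh, 202 ± 1.74 in proliferative, 63.5 ± 9.46 in senescent and 109 ± 12.04 after pre-treatment (senescent -1.67 ± 0.11, pre-treated -0.89 ± 0.11). IFIT2 was at 11.1 ± 0.583 CPM in fresh, 55.2 ± 1.37 in proliferative, 18.03 ± 0.925 in senescent and 22.4 ± 0.815 after pre-treatment (senescent -1.62 ± 0.09, pre-treated -1.30 ± 0.08). KRT17 was at 7.34 ± 1.06 CPM in fresh, 76.3 ± 2.46 in proliferative, 54.1 ± 2.03 in senescent and 16.98 ± 2.07 after pre-treatment (senescent -0.50 ± 0.08, pre-treated -2.17 ± 0.09), so its pre-treated libraries lay closest to the fresh ones. C3 did not pass the test between senescent and proliferative medium (0.13 ± 0.06) and was lower after pre-treatment (-0.99 ± 0.06), at 12.1 ± 0.731 CPM in fresh, 68.9 ± 3.23 in proliferative, 75.2 ± 5.07 in senescent and 34.6 ± 0.212 after pre-treatment. FN1 was lower in senescent medium (-0.54 ± 0.03) and higher after pre-treatment (0.25 ± 0.03). Among the genes that fell, PSAT1 was higher than in proliferative medium in both (1.02 ± 0.08 and 0.35 ± 0.08), and SGK1 did not pass the test in senescent medium (0.25 ± 0.12).

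By list, against proliferative medium, 1 of 32 were higher and 20 lower among HIF targets in senescent medium, and 11 of 32 were higher and 15 lower after pre-treatment. Of interferon-stimulated genes 0 of 29 were higher and 17 lower in senescent medium and 1 of 29 were higher and 20 lower after pre-treatment. Of DNA replication genes 34 of 38 were higher and 0 lower in senescent medium and 23 of 38 were higher and 0 lower after pre-treatment. Of heat shock and chaperonin genes 25 of 29 were higher and 0 lower and 15 of 29 were higher and 2 lower in the same order. Each of these counts shares its proliferative libraries with the comparison above.

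**Figure D5:**
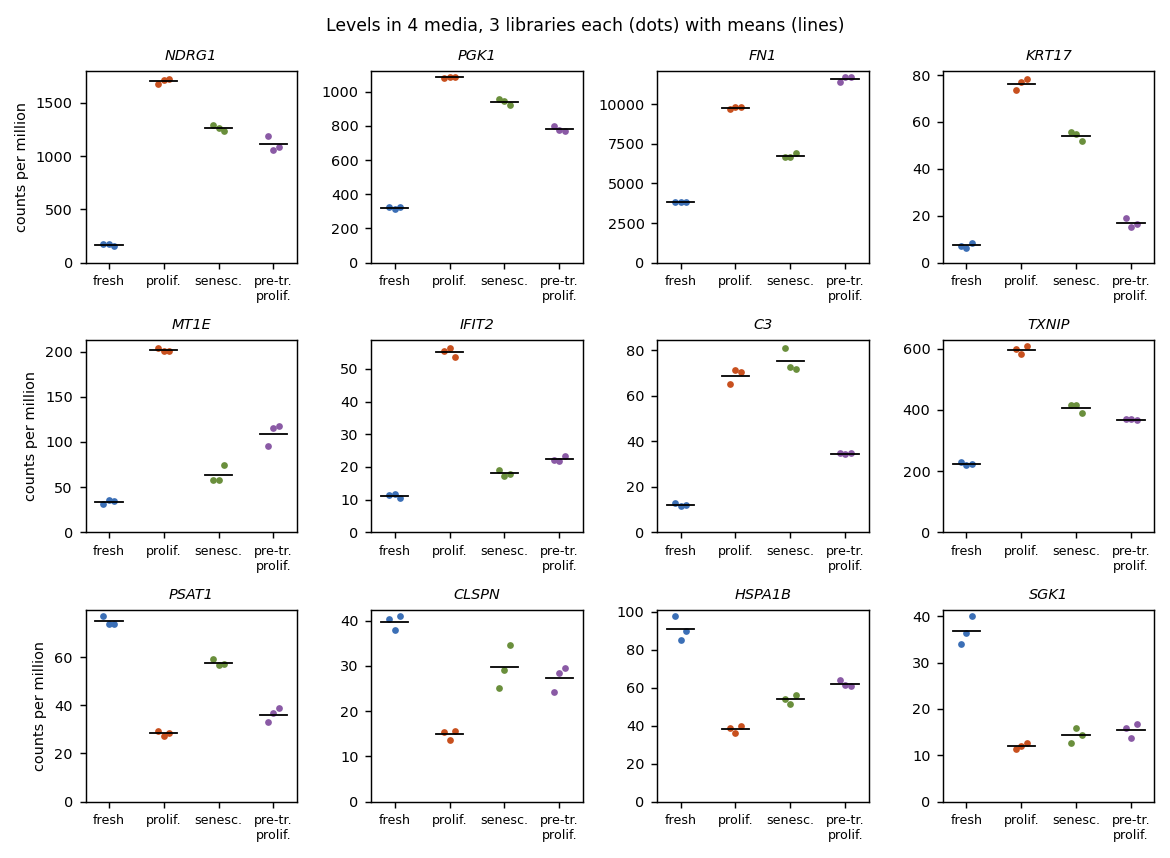
CPM (vertical axes from 0) of 12 genes, chosen after their values were seen, in fresh, proliferative and senescent medium and after pre-treatment with proliferative medium, with a dot per library and a line at each mean. In each panel the proliferative and fresh libraries stand apart, while the senescent and pre-treated libraries take different places from gene to gene.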

How the data were processed

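RNA of OVCAR8 cells was sequenced in 24 polyA libraries made with the NEBNext Ultra 2 kit, per the labels' protocols. STAR 2.6.1, DESeq2 (listed as version 2) and the build GRCh38 appear in the submitters' processing notes without roles, with counter and strand not given in the sources used here. Raw read counts and FPKM (counts scaled to gene length and library size) of 58735 genes were deposited by the authors, per the file headers.

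The counts went into edgeR 4.0.16 (R 4.3.3, robust quasi-likelihood fit, 1 mean for each of 8 groups, 24 libraries, 16 residual degrees of freedom). TMM factors ran from 0.957 to 1.03, filterByExpr left 19210 genes, and the common BCV came to 0.0638. Tests were two-sided, with Benjamini-Hochberg adjustment at 0.05. Each SE is the absolute log2 fold change over the square root of F, an approximation. Fold changes of genes with few counts depend on the prior count. The script was tested on simulated data. Replicates of a group differed by more than counting noise (chi-square per degree of freedom of 1.71 to 3.15), so none was treated as a repeat deposit of 1 library; this does not show separate cultures.

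The members and 53 gene lists were chosen with earlier results of these data known. Lists have no set test and are described by counts and medians. Some genes stand in more than 1 list, so counts of different lists are not separate results. Some list members are counted but not reported by name here. Named genes were drawn from the 12 largest rises and falls past the threshold with FPKM of at least 1 and no overlap. Other sources were the 8 largest each way in FPKM and up to 8 per list by size, direction and level. The last source was the 4 largest long non-coding RNAs each way. Not all of these candidates are named. Further genes were named after their values were seen, mostly ones whose call held with any single library left out. Promoters are RefSeq (GRCh38.p14), matched by symbol, with 25 of 32 HIF targets, 25 of 33 interferon-stimulated genes and 7 of 13 metal genes found. Gene positions and types come from the deposited table, and GC content from GENCODE 29 transcripts.

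Alternatives were DESeq2 size factors or library totals in edgeR, DESeq2 1.42.0, other filters, the 2 groups alone, a replicate block, GC and length correction, limma 3.58.1 on log2(FPKM + 1) and log2(FPKM + 0.1), and leaving out each library.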

Additional observations from a re-analysis of the deposited data

How the results depend on the processing

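The counts for proliferative against fresh medium stayed within 1.5 times (3966 rises and 4138 falls) except when only the 8028 genes with a mean FPKM of at least 5 were tested, which gave 2436 rises and 2430 falls. That floor also gave 1882 genes higher in senescent than in proliferative medium, against 3186; in each case fewer genes were tested. Leaving out single libraries gave 3451 to 3624 rises and 3553 to 3753 falls.

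Equal replicate numbers showed no visible pairing. The correlations of same-numbered deviations for proliferative and fresh medium were -0.0805, -0.0114 and -0.139. Those of differently numbered libraries ran from -0.0844 to 0.15. Deviations were taken from means of 3 libraries, so these values cannot exclude pairing. With the replicate number as a block, 3935 genes rose and 4103 fell in proliferative medium, 3150 were higher and 2365 lower in senescent medium, and 2441 were higher and 2560 lower after pre-treatment.

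Of 53 lists, 42 kept their larger direction in each alternative, and the larger count stayed within 1.5 times in 51, the FPKM floor apart. The 11 with no larger direction in all settings, ties included, were the pentose phosphate and glycogen, nuclear respiratory chain, NRF2, aryl hydrocarbon receptor, immediate early, keratin, matrix protease, epithelial-mesenchymal, TGF-beta and BMP, ABC transporter and stem-like lists. Without proliferative replicate 3, falls numbered 5 against 8 in the ERK list and 1 against 2 in the stem-like list, and without fresh or proliferative replicate 2 keratins had 1 fall against 2. The sugar phosphate gene PGLS, which rose by 0.16, was at -0.0303 with GC and length correction and at -0.0304 with the replicate block added, and the cause was not tested. Its call was also lost without fresh replicate 2 or 3 or proliferative replicate 1 or 3 (edgeR adjusted p of 0.0513 to 0.174). Of 468 called genes that are named or listed as candidates to name, 457 to 463 kept call and direction with a single library left out, 466 with the replicate block, 461 with GC and length correction, 463 without a filter on low counts, 467 with library totals and 468 with DESeq2's test or size factors. With GC and length correction the medians changed sign in the glycogen and pentose phosphate (-0.066), immediate early (-0.019), ERK (-0.059) and stem-like (0.01) lists. With the FPKM floor they changed sign in these 4 (-0.008, -0.089, -0.124 and 0.064) and in the aryl hydrocarbon receptor (-0.113) and epithelial-mesenchymal (0.166) lists. Leaving out a single library changed the sign in the nuclear respiratory chain, iron, fatty acid oxidation, ERK, epithelial-mesenchymal and stem-like lists, whose medians stayed within 0.061 of 0.

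Low counts limit the metallothionein, keratin and chemokine lists, in which several members had too few reads to be tested.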
